A study of Mus musculus with 4 samples.

Results

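Narrow H3K4me3 peaks without H3K27me3 were described in mouse embryonic fibroblasts (MEF), which are cultured connective tissue cells, from chromatin immunoprecipitation with sequencing (ChIP-seq). The members were chosen by measured values. Reads with 1 location on the autosomes of mouse build mm8 were moved 75 bp towards their 3′ side and counted in 1 kb bins. A fold is a bin's reads divided by the mean of that library, taken over 2160735 bins (those not empty in all 4 libraries). Adjacent bins with MEF H3K4me3 of 3-fold or more were joined. Regions of 1 to 2 kb were kept when their highest bin reached 10-fold and their mean MEF H3K27me3 stayed under 2-fold. This gave 2228 members among 35404 H3K4me3 regions, or 6.29%, of which 291 were 1 kb and 1937 were 2 kb wide.

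The study held 4 libraries, 1 in each group: H3K4me3, H3K27me3 and H3K9me3 in MEF, and H3K9me3 in secondary MEF. MEF were grown in DMEM with 10% FBS, and the labels give them no genotype, strain or age. Secondary MEF were harvested at 13.5 days post coitum from chimeric embryos, made by injecting induced pluripotent stem cells into BDF2 blastocysts. Those stem cells carried inducible Oct4, Klf4 and Sox2 and an Oct4-selectable cassette and had been derived in Wnt3a-conditioned medium. Cells of the injected line were then selected with 2 µg/ml puromycin for 48 hours, and whether doxycycline was given to the fibroblasts is not stated in the labels. They were grown in the same basal medium with 10% cosmic calf serum. Both H3K9me3 libraries used 1 antibody lot, and the flow cell of the secondary MEF library was another than that of the 3 MEF libraries. Since each group was 1 library, no difference has a replicate test, every comparison is between libraries, and intervals (95%) cover counting error only. Expression was not measured, so the labelled cell types could not be checked against marker genes.

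H3K4me3 is deposited by SET1 and MLL complexes and marks the starts of active and poised genes, often at CpG islands. H3K27me3 is the product of Polycomb repressive complex 2, and promoters that carry it together with H3K4me3 are called bivalent. H3K9me3 is a mark of heterochromatin, bound by HP1 proteins and found over silenced repeats. Gene annotation and sequence of mm8 were not used here, so members are named by position, and whether a member lies at a gene start is not given.

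There were 12027212 autosomal H3K4me3 reads with 1 location, 9559012 of H3K27me3, 8712483 of MEF H3K9me3 and 7852786 of secondary MEF H3K9me3, or means of 5.57, 4.42, 4.03 and 3.63 reads in a bin. The members made up 0.193% of these bins. They held 5.46% of the H3K4me3 reads, 0.254% of the H3K27me3 reads, 0.304% of the MEF H3K9me3 reads and 0.471% of the secondary MEF H3K9me3 reads. A median member held 295 H3K4me3 reads, 11 H3K27me3 reads, 11 MEF H3K9me3 reads and 16 secondary MEF H3K9me3 reads. Single members were thus measured well for H3K4me3 only, and the other libraries are given mainly as pooled values.

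H3K4me3 itself chose the members, and its levels are a description. The highest bin of a member ranged from 10.1-fold to 125-fold, with a median of 39.0-fold and quartiles of 20.8-fold and 55.5-fold. By that bin, 539 members stood between 10-fold and 20-fold, 595 between 20-fold and 40-fold, 993 between 40-fold and 80-fold, and 101 at 80-fold or more. The central 80% of the H3K4me3 reads within 1 kb of a member spanned a median of 811 bp, with quartiles of 630 bp and 1049 bp. In the 4990 regions of 3 kb or more that met the other thresholds, this span was 1687 bp. Members of 1 kb had a median span of 628 bp and members of 2 kb one of 842 bp. In members of 2 kb the taller bin held a median of 74.95% of the reads (quartiles 63.9% and 84.7%).

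The members with the highest bins had H3K27me3 under the cap, as the rule requires of every member. The member on chromosome 2 from 38886001 to 38888000 held the highest bin, at 125-fold, with 751 H3K4me3 reads, 17 H3K27me3 reads, 15 MEF H3K9me3 reads and 19 secondary MEF H3K9me3 reads. The member on chromosome 6 from 35468001 to 35470000 reached 114-fold, with 662, 17, 17 and 22 reads in the same order. On chromosome 8 from 129308001 to 129310000 the highest bin stood at 113-fold, with 770, 15, 19 and 19 reads. Scaled by library, the H3K9me3 of secondary MEF over MEF in these 3 members was 1.405 (0.677 to 2.97), 1.436 (0.728 to 2.88) and 1.109 (0.556 to 2.21). The member on chromosome 10 from 79072001 to 79074000 held the most H3K4me3 reads of the leading 10, with 1007, and a mean of 90.5-fold (85.0 to 96.2). It had 2.98-fold MEF H3K9me3 (1.91 to 4.43) and 4.40-fold secondary MEF H3K9me3 (3.01 to 6.22). The other 6 of the leading 10 lay on chromosomes 2, 4, 6, 10, 12 and 13, with highest bins from 103.3-fold to 108.5-fold. All 10 were 2 kb wide, and their H3K27me3 lay between 1.24-fold and 1.92-fold.

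The thresholds left out many regions that were close to the members. At the height threshold, 30 members had a highest bin of 10.1-fold, and 27 regions that were otherwise alike stood just outside at 9.88-fold. At the H3K27me3 threshold, 176 members had 1.92-fold and 215 narrow regions stood outside at 2.03-fold, a difference of 1 read in 2 kb. Just inside it lay chromosome 18 from 3382001 to 3384000, chromosome 3 from 5197001 to 5199000 and chromosome 17 from 5805001 to 5807000, each with 17 H3K27me3 reads. Just outside lay chromosome 2 from 3666001 to 3667000, with 9 reads in 1 kb, and chromosome 13 from 3916001 to 3918000 and chromosome 19 from 4257001 to 4259000, each with 18 reads. Just inside the height threshold lay 1 kb members on chromosome 19 from 6936001, chromosome 12 from 8664001 and chromosome 13 from 23705001, each with 56 H3K4me3 reads. Just outside it were 2 kb regions on chromosome 18 from 13996001, chromosome 12 from 16557001 and chromosome 16 from 18329001. At the width threshold, 2299 regions of 3 kb met both other criteria and were left out.

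H3K27me3 was low in the members by choice, yet reads of its library were not absent. No input library was used, so how much of this level is the mark was not tested. Its median was 1.36-fold (quartiles 1.02-fold and 1.70-fold), and 6 members held 0 reads. The pooled level was 1.32-fold (1.30 to 1.33), above the 0.973-fold in bins 3 to 10 kb away on both sides, from which all H3K4me3 regions were left out. The rule caps H3K27me3 in the member and not in these flanks, so the excess over them is a description. In 75.1% of the 2216 members with at least 5 flank bins, H3K27me3 was above that member's own flanks. This share was not computed over all H3K4me3 regions. Pooled H3K27me3 was 1.35 times the flanks in members and 1.37 times in regions of 3 kb or more that met the other thresholds. Members with H3K27me3 under 1-fold numbered 499 and had lower H3K4me3 as well, at a pooled 23.1-fold against 31.8-fold in the 819 members between 1.5-fold and 2-fold.

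MEF H3K9me3, which the rule did not use, was raised modestly in the members. The median member stood at 1.49-fold (quartiles 1.12-fold and 1.98-fold), against 0.868-fold in all 2 kb windows of the autosomes. The pooled level was 1.58-fold (1.56 to 1.60), and 1.52 times (1.499 to 1.54) that of the flanks. MEF H3K9me3 reached 2-fold in 487 members (21.9%). Among all autosomal windows 11.3% of 1 kb bins and 10.3% of 2 kb windows did so, and among all H3K4me3 regions 44.1%. The share in members was thus above that of the genome and below that of H3K4me3 regions as a whole. It was near the 20.5% of regions of 3 kb or more that met the other thresholds. Narrow regions above the same height threshold with H3K27me3 of 2-fold or more stood at 72.6%. Their height was not matched, with a median H3K4me3 of 18.8-fold against 27.5-fold in members. Among members the share was 8.62% in the 499 with H3K27me3 under 1-fold, which is below the share of the genome. It was 19.7% from 1-fold to 1.5-fold and 32.4% from 1.5-fold to 2-fold, and the part of H3K27me3 in this was not tested. The level of those 499 was still above the genome, with a median of 1.12-fold against 0.868-fold, and 1.38 times their flanks. By width, 67 of the 291 members of 1 kb and 420 of the 1937 members of 2 kb reached 2-fold.

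Secondary MEF H3K9me3 was higher over the members than MEF H3K9me3. The median was 2.34-fold (quartiles 1.79-fold and 3.03-fold), against 0.826-fold in all 2 kb windows, and the pooled level was 2.44-fold (2.42 to 2.47). This was 2.35 times (2.32 to 2.38) the flanks, which stood at 1.04-fold in both H3K9me3 libraries. In this library 1449 members (65.0%) reached 2-fold, against 11.6% of all 1 kb bins, 10.7% of 2 kb windows and 67.0% of all H3K4me3 regions. The share was 68.4% in regions of 3 kb or more that met the other thresholds. It was 86.9% in narrow regions with H3K27me3 of 2-fold or more. At 2-fold, 437 members were shared with the MEF library, 1012 reached it in secondary MEF alone, 50 in MEF alone and 729 in neither. These are 19.6%, 45.4%, 2.24% and 32.7% of the members, against 36.6%, 30.3%, 7.50% and 25.6% of all H3K4me3 regions. The secondary fold exceeded the MEF fold in 1865 members (83.7%), against 68.8% of all H3K4me3 regions. This share and the overlap at 2-fold were not computed for the regions of 3 kb or more, so neither is called particular to members. The secondary fold also exceeded the member's own flanks in 93.7% of members, against 76.6% for MEF H3K9me3. These shares were not computed over all H3K4me3 regions, but other such regions exceeded their flanks too. In regions of 3 kb or more that met the other thresholds, the pooled ratios to flanks were 2.08 for secondary MEF and 1.43 for MEF. In narrow regions above the same height threshold with H3K27me3 of 2-fold or more they were 2.91 and 2.43. In narrow regions without H3K27me3 whose highest H3K4me3 bin was under 10-fold they were 1.62 and 1.25. At 4-fold, 150 members stood in secondary MEF, 11 in MEF and 6 in both. These shares of 6.73%, 0.494% and 0.269% were below those of all H3K4me3 regions, at 12.4%, 7.67% and 3.73%.

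**Figure D1:**
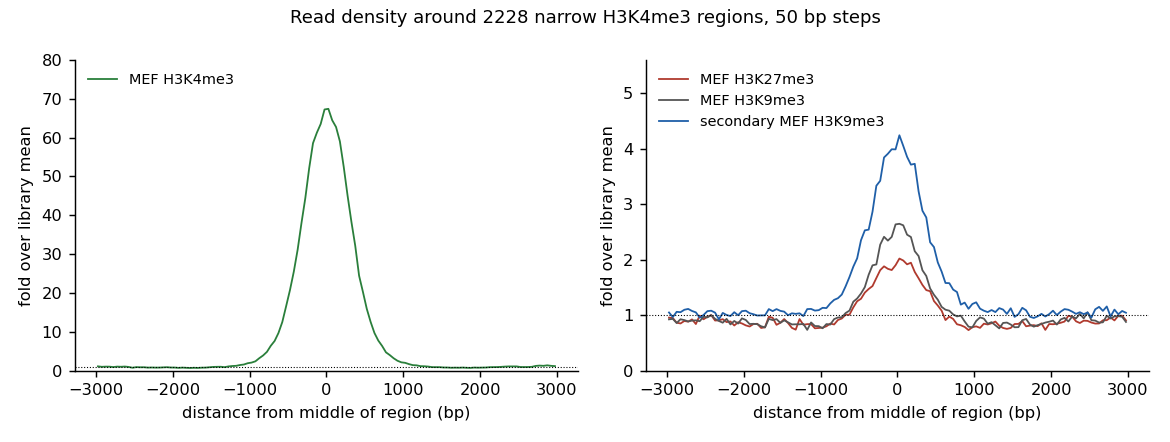
Read density around the middle of the 2228 members in 50 bp steps, as fold over each library's mean, with MEF H3K4me3 on the left and the other 3 libraries on the right. All libraries peak at the middle, and secondary MEF H3K9me3 is the highest of the 3 on the right, at 4.07-fold in the central 100 bp on each side.

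At fine scale, the 3 other libraries peaked where H3K4me3 did. Within 100 bp of the middle of the members, pooled H3K4me3 was 65.6-fold, secondary MEF H3K9me3 4.07-fold (3.97 to 4.17), MEF H3K9me3 2.58-fold (2.51 to 2.65) and MEF H3K27me3 1.93-fold (1.87 to 1.99). From 400 to 600 bp away H3K4me3 had fallen to 18.6-fold, and the others stood at 2.13-fold, 1.34-fold and 1.26-fold in the same order. From 1000 to 2000 bp away MEF H3K9me3 was at 0.854-fold and MEF H3K27me3 at 0.828-fold, both under the library mean, while secondary MEF H3K9me3 was at 1.06-fold and H3K4me3 at 1.04-fold. The middle was set from the H3K4me3 reads, so the H3K4me3 peak is fixed by the choice, whereas the peaks of both H3K9me3 libraries are not. Centred on the 100 bp window with the most H3K4me3 reads, the rise was steeper, with 5.93-fold for secondary MEF H3K9me3, 3.75-fold for MEF H3K9me3 and 2.83-fold for H3K27me3. No input library was used here. The 3 libraries rose at the same place as H3K4me3, and what they share there was not tested. Of the reads over members, 97.8% in MEF H3K9me3, 97.4% in secondary MEF H3K9me3, 94.3% in H3K27me3 and 84.0% in H3K4me3 were at distinct positions.

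The H3K4me3 profile of single members varied in form. In 848 members (38.1%) the central 200 bp held more H3K4me3 reads than the 200 bp on either side. In 408 (18.3%) it held fewer than both sides. The remaining 972 met neither description. The middle was set from the H3K4me3 reads themselves, and these shares were not computed over other H3K4me3 regions.

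**Figure D2:**
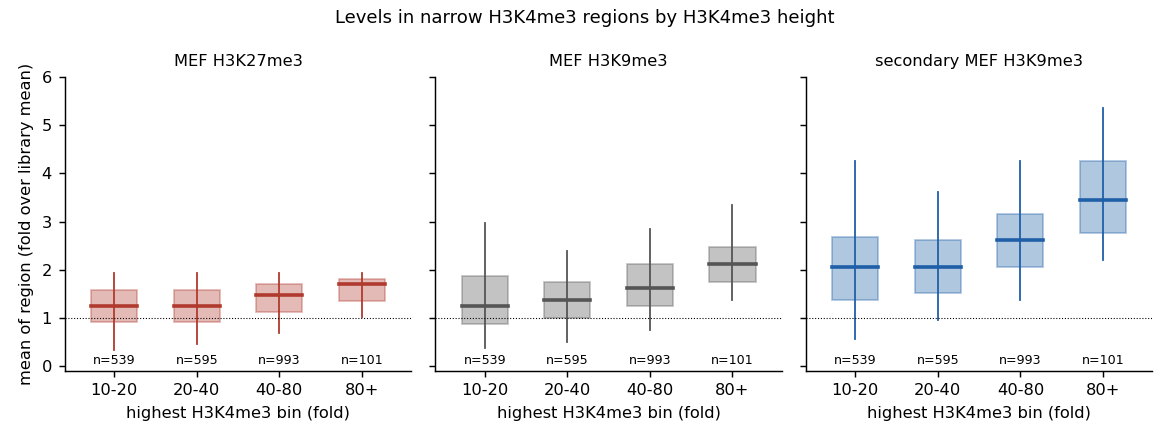
Mean fold of each member in 3 libraries, grouped by the member's highest H3K4me3 bin. Boxes are quartiles with the median, lines run from the 5th to the 95th percentile, and the dotted line is the library mean. Medians rise from 1.24-fold to 2.11-fold for MEF H3K9me3 and from 2.06-fold to 3.44-fold for secondary MEF H3K9me3.

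Both H3K9me3 libraries were highest in the tallest members, while the 2 lower height classes were close to each other. Pooled MEF H3K9me3 was 1.43-fold in members of 10-fold to 20-fold, 1.37-fold at 20-fold to 40-fold, 1.71-fold at 40-fold to 80-fold and 2.19-fold (2.08 to 2.29) at 80-fold or more. Secondary MEF H3K9me3 stood at 2.14-fold, 2.10-fold, 2.67-fold and 3.52-fold in the same classes. Of the 101 tallest members, 97 (96.0%) reached 2-fold in secondary MEF and 53 (52.5%) in MEF. Of all 1825 H3K4me3 regions of that height, 93.4% and 51.2% did so, which is near the shares of the members. Pooled H3K27me3, held under its cap, stood at 1.21-fold in the lowest and 1.58-fold in the highest class, and its part in the H3K9me3 levels was not tested.

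The ratio of H3K9me3 read shares, secondary MEF over MEF, was 1.55 (1.52 to 1.57) in the members and 1.001 (0.993 to 1.01) in their flanks. Without chromosome 12, where the flanks stood at 1.36, the values were 1.53 (1.502 to 1.55) and 0.989 (0.981 to 0.998). The ratio was nearly level along the height of the members, with 1.48 (1.42 to 1.53), 1.52 (1.47 to 1.57), 1.545 (1.51 to 1.58) and 1.56 (1.47 to 1.67) in the 4 height classes without chromosome 12. Along H3K27me3, also without chromosome 12, it was 1.504 (1.445 to 1.565) under 1-fold and 1.57 (1.531 to 1.609) from 1-fold to 1.5-fold. From 1.5-fold to 2-fold it was 1.493 (1.456 to 1.53), which does not overlap the class before it. It was 1.497 (1.467 to 1.528) in members over 10 kb from the next H3K4me3 region. In those within 10 kb it was 1.572 (1.532 to 1.614). Across the peak it was 1.58 (1.52 to 1.64) in the central 100 bp, 1.59 (1.53 to 1.65) from 400 to 600 bp away, 1.24 (1.21 to 1.26) from 1000 to 2000 bp away and 1.135 (1.11 to 1.16) beyond that up to 3000 bp. Cell source, serum and flow cell all differ between both H3K9me3 libraries, and puromycin selection and the inducible factors are given for secondary MEF only. These cannot be told apart.

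**Figure D3:**
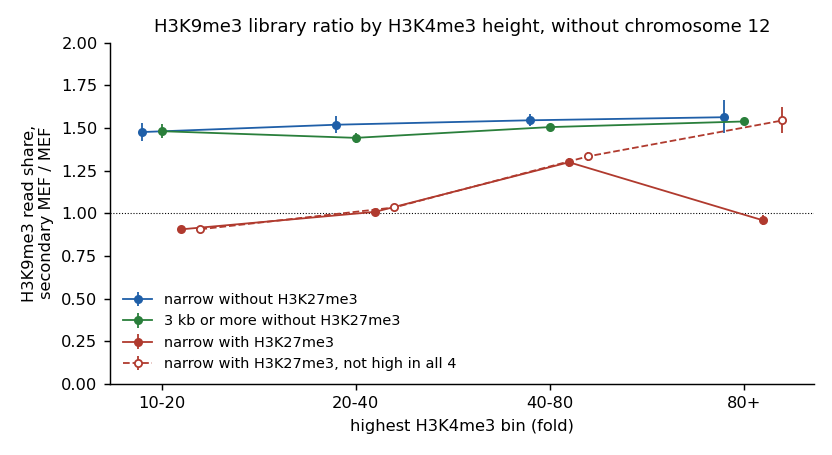
Ratio of H3K9me3 read shares, secondary MEF over MEF, against the highest H3K4me3 bin for members, for regions of 3 kb or more without H3K27me3 and for narrow regions with H3K27me3, all without chromosome 12, with 95% counting intervals. Open points leave out narrow regions with H3K27me3 at 5-fold or more in all 4 libraries, a choice made after seeing the data. With them left out, the class of 80-fold or more moves from 0.958 to 1.54.

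Against other H3K4me3 regions, the members had a higher ratio than narrow regions with H3K27me3, while their interval overlapped that of wider regions without it. Without chromosome 12 the ratio was 1.504 (1.49 to 1.515) in the regions of 3 kb or more without H3K27me3. The pooled levels there were 1.63-fold for MEF and 2.49-fold for the secondary library. In the 3669 narrow regions with H3K27me3 of 2-fold or more, the pooled levels were 3.51-fold and 3.65-fold, and the ratio without chromosome 12 was 1.02 (1.01 to 1.03). Of these, 171 regions were at 5-fold or more in all 4 libraries, a level the H3K27me3 cap keeps members from. Without such regions and without chromosome 12, the ratio was 1.07 (1.06 to 1.08). With no such region left out, the ratio of narrow regions with H3K27me3 was 0.9055, 1.008, 1.299 and 0.958 in the 4 height classes, lowest to highest, again without chromosome 12. Leaving out the regions high in all 4 libraries was chosen after seeing the data, and it uses both H3K9me3 libraries. The ratio was then 0.906 (0.891 to 0.9215) at 10-fold to 20-fold, 1.33 (1.31 to 1.36) at 40-fold to 80-fold and 1.54 (1.47 to 1.62) at 80-fold or more. At that last height 5 regions were left out. The interval overlapped that of the members there only with them left out. In the 10699 narrow regions without H3K27me3 whose highest bin stayed under 10-fold, the ratio without chromosome 12 was 1.33 (1.32 to 1.34). Each set is 1 value from 1 pair of libraries, so none of these differences has a replicate test.

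Single members were compared between the H3K9me3 libraries where both held at least 20 reads together, which 1716 members did. A member differed at 2-fold or more with an interval, allowing 0.1% error, that excluded 1. By this rule 41 members (2.39%) were higher in secondary MEF and 0 were lower. Among all 23488 H3K4me3 regions compared the same way, 2.88% were higher and 0.294% lower, so the share of higher members was near the background. Outside chromosome 12, 31 of 1653 members (1.88%) were higher, against 2.18% of all H3K4me3 regions there.

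The largest ratios came from members with very few MEF H3K9me3 reads. On chromosome 17 from 35468001 to 35470000 there were 4 MEF reads and 32 secondary MEF reads, with 301 H3K4me3 and 10 H3K27me3 reads, a ratio of 8.88 (3.15 to 34.55). On chromosome 7 from 4641001 to 4643000 the reads were 2 and 19, and on chromosome 16 from 10458001 to 10460000 they were 3 and 21. Chromosome 17 from 28805001 to 28807000 held 4 and 25, and chromosome 9 from 44111001 to 44113000 held 3 and 19. In all 5 the secondary fold lay between 2.61-fold and 4.40-fold, above the median member, and the MEF fold was at most 0.496-fold. In the other direction, chromosome 10 from 86160001 to 86162000 held 16 MEF reads and 4 secondary reads, a ratio of 0.277 (0.0675 to 0.860). Chromosome 1 from 90939001 to 90940000 held 21 and 6, with a ratio of 0.317 (0.105 to 0.812). The other 3 of the lowest ratios, on chromosomes 6, 16 and 1, held 16 to 18 MEF reads and 5 to 6 secondary reads.

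A few members carried strong H3K9me3 in both libraries. Chromosome 18 from 37892001 to 37894000 held the most, with 65 MEF reads, or 8.06-fold (6.22 to 10.3), and 88 secondary MEF reads, or 12.1-fold (9.71 to 14.9). Its H3K4me3 was weak for a member, at 78 reads and a highest bin of 10.1-fold, and it held 7 H3K27me3 reads. Chromosome 14 from 26255001 to 26257000 combined strong H3K4me3 (350 reads, 31.4-fold) with 56 MEF H3K9me3 reads, or 6.94-fold (5.25 to 9.02), and 71 secondary reads, or 9.77-fold (7.63 to 12.3). Its 17 H3K27me3 reads placed it just under the cap, and the next H3K4me3 region was 76 kb away. Chromosome 6 from 37547001 to 37549000 had 4.46-fold for MEF and 6.74-fold for secondary MEF, and chromosome 11 from 77319001 to 77321000 had 4.96-fold and 3.72-fold. Also among the highest of the secondary library were chromosome 7 from 51729001 to 51731000, at 6.74-fold with 3.72-fold for MEF, and chromosome 12 from 85206001 to 85208000, at 6.33-fold with 2.23-fold in MEF and 821 H3K4me3 reads.

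**Figure D4:**
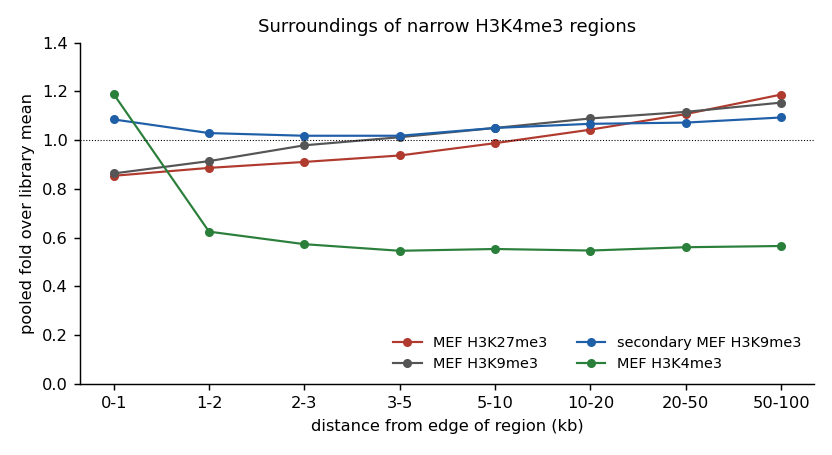
Pooled fold over the library mean in 1 kb bins outside any H3K4me3 region, by distance from the edge of the members. MEF H3K27me3 and MEF H3K9me3 are lowest next to the members (0.854-fold and 0.863-fold) and rise to 1.19-fold and 1.15-fold at 50 to 100 kb, while secondary MEF H3K9me3 stays between 1.02-fold and 1.09-fold.

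Around the members, both repressive marks of MEF were lowest close by. In bins outside any H3K4me3 region, pooled H3K27me3 rose from 0.854-fold within 1 kb of a member to 0.937-fold at 3 to 5 kb, 1.04-fold at 10 to 20 kb and 1.19-fold at 50 to 100 kb. MEF H3K9me3 rose from 0.863-fold to 1.01-fold, 1.09-fold and 1.15-fold over the same steps. Secondary MEF H3K9me3 did not follow this slope and stood at 1.085-fold, 1.02-fold, 1.07-fold and 1.09-fold. H3K4me3 outside its own regions was 1.19-fold in the first kb and 0.546-fold at 3 to 5 kb. Around the wider regions both MEF marks rose too, with H3K27me3 from 0.8996-fold to 1.345-fold and MEF H3K9me3 from 1.01-fold to 1.28-fold. Secondary MEF H3K9me3 did not rise there either, with 1.27-fold within 1 kb and 1.21-fold at 50 to 100 kb.

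Some members lay in surroundings rich in H3K27me3, while the rule kept the members themselves under 2-fold. In 106 members (4.78% of 2216 with enough flank bins) the flanks held H3K27me3 of 2-fold or more. The share of all H3K4me3 regions in such surroundings was not computed, so these members cannot be called many or few. Pooled H3K27me3 of these 106 members was 1.49-fold, held down by the rule. Their H3K4me3 was 29.0-fold, near the 29.1-fold of the 352 members with flanks under 0.5-fold. Without chromosome 12, the H3K9me3 ratio of the flanks fell with their H3K27me3, from 1.05 (1.02 to 1.08) under 0.5-fold to 0.842 (0.816 to 0.869) at 2-fold or more. In the members themselves the ratio was 1.54 (1.47 to 1.60) and 1.48 (1.38 to 1.59) in these 2 classes.

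**Figure D5:**
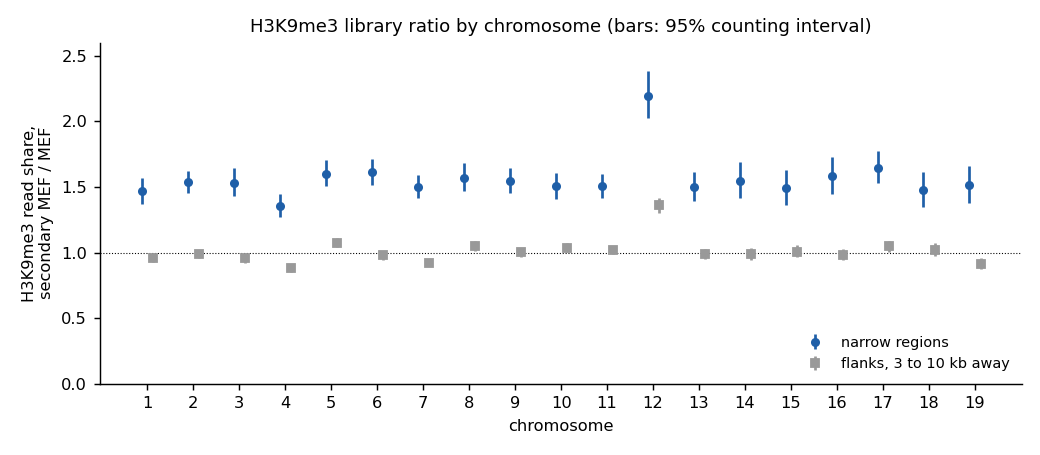
Ratio of H3K9me3 read shares, secondary MEF over MEF, in the members and in their flanks 3 to 10 kb away, for each autosome, with 95% counting intervals. The members lie above their flanks on all 19 autosomes, and chromosome 12 is raised in both.

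The ratio in members exceeded that of the flanks on each of the 19 autosomes, without overlap of the intervals. On the 18 autosomes other than chromosome 12, members lay between 1.36 (chromosome 4) and 1.65 (chromosome 17), and flanks between 0.881 and 1.075. On chromosome 12, the 80 members stood at 2.20 (2.025 to 2.38) and their flanks at 1.36 (1.302 to 1.42). Divided by the flanks, the members of chromosome 12 were at 1.62 (1.475 to 1.77) and those of the other autosomes together at 1.54 (1.515 to 1.57), and these intervals overlap.

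By its median, the distance from other H3K4me3 regions was longer for members than for the 3 comparison sets. The median distance to the next region was 16 kb (quartiles 6 kb and 36 kb), against 10 kb for wider regions without H3K27me3, 13 kb for narrow regions with it and 7 kb for narrow regions without it whose highest bin was under 10-fold. It exceeded 10 kb in 1401 members (62.9%) and 100 kb in 142. The most remote was the 1 kb member on chromosome 17 from 58698001 to 58699000, with 243 H3K4me3 reads (43.7-fold) and no other region within 1735 kb. It held 6 H3K27me3 reads, 6 MEF H3K9me3 reads and 7 secondary MEF reads. Next came chromosome 3 from 16375001 to 16377000 (1194 kb), chromosome 18 from 30415001 to 30417000 (1167 kb), chromosome 3 from 46543001 to 46545000 (1064 kb) and chromosome 4 from 74748001 to 74750000 (1023 kb). Their H3K4me3 lay between 18.5-fold and 28.6-fold. The 142 members over 100 kb away had 27.9-fold H3K4me3 and 2.16-fold secondary MEF H3K9me3 (2.07 to 2.26), with an H3K9me3 ratio of 1.42 (1.33 to 1.52) without chromosome 12. At the other end, 276 members lay within 2 kb of another region, with 23.4-fold H3K4me3 and a ratio of 1.54 (1.47 to 1.61), and for 108 of these (39.1%) the next region was narrow, without H3K27me3 and under 10-fold, as were 30.2% of all H3K4me3 regions.

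Members were spread over 1164 windows of 1 Mb, of which 624 held 1 member and 58 held 5 or more. The fullest windows were singled out after their values were seen. Chromosome 13 from 21000001 to 22000000 held 15 members among 47 H3K4me3 regions, with 18.3-fold H3K4me3, 1.01-fold MEF H3K9me3 and 1.36-fold secondary MEF H3K9me3. Further along, chromosome 13 from 67000001 to 68000000 held 14 members among 18 regions, and the window after it held 10 among 12. In these, H3K27me3 was at 0.801-fold and 0.904-fold, MEF H3K9me3 at 1.21-fold and 0.9145-fold, and secondary MEF H3K9me3 at 1.73-fold and 1.32-fold. Chromosome 3 from 95000001 and chromosome 17 from 21000001 held 10 members each, among 41 and 21 regions. Over whole chromosomes, members made up from 4.19% (chromosome 15) to 8.15% (chromosome 13) of the H3K4me3 regions.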

How the data were processed

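The deposited files hold no level but another kind of value: signed positions of aligned reads, not normalised, where a minus sign marks the minus strand, per the file headers. The authors aligned them to mm8 with Bowtie (-e 70, -k 2, -m 2, -n 2, -l 36, --best, --concise), per the file headers, and listed reads with 1 and with 2 locations apart; the version and any removal of repeated reads are not given in the sources used here. Per the labels' protocols, chromatin had a mean length of 500 bp, and libraries took 18 PCR cycles and a gel cut of 150 to 350 bp.

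Positions were taken as leftmost bases of reads of 36 bases. Depth was 3.63 to 5.57 reads per 1 kb bin. Pooled folds have exact Poisson intervals, and ratios have Clopper-Pearson intervals, except ratios divided by flanks (log-normal). Ratios are scaled by autosomal reads. Members, lists and thresholds were chosen with earlier results of these data known. Named were the members with the 10 highest H3K4me3 bins, the 5 highest for each H3K9me3 library, the 5 largest and smallest ratios (20 reads or more, 0.5 added), the 5 most remote, and 3 on each side of the height and H3K27me3 thresholds. Alternatives covered shift, repeated reads, grid, thresholds, reads with 2 locations, the mean and the flanks. The rules were tested on simulated data. Input libraries and mm8 annotation were not used. Python 3.11.15, numpy 2.4.6, scipy 1.17.1 and pandas 2.3.3 were used.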

Additional observations from a re-analysis of the deposited data

Results flagged for a closer look

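Chromosome X lies outside the rule for members. By the same thresholds and autosomal means it held 142 regions among 594 H3K4me3 regions, at a pooled 18.1-fold H3K4me3 and 1.23-fold H3K27me3. Their H3K9me3 stood at 1.26-fold for MEF and 1.37-fold for secondary MEF, a ratio of 1.08 (1.003 to 1.17), while their flanks were at 0.667 (0.635 to 0.700). Divided by the flanks, these regions were at 1.625 (1.48 to 1.78). The sex of the cells is not given in the labels.

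Reads with 2 locations, which the report does not count, also fell on the members. MEF H3K4me3 had 42398 such listings there, or 6.07% of all listings in members, against 4.29% over the autosomes. In the other libraries the share in members was 7.09% to 7.98%, against 5.04% to 6.37% over the autosomes.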

How the results depend on the processing

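Over 11 settings, 87 of 123 values stayed within the interval of the value reported (counts within 1.5 times, medians also within the step that single reads give), 35 moved and 1 reversed. The ratio between the H3K9me3 libraries, with and without chromosome 12, stayed within its interval in all of them. With H3K27me3 held under 1-fold, 499 members were left, with medians of 1.12-fold MEF and 1.79-fold secondary MEF H3K9me3, shares at 2-fold of 8.62% (below the 11.3% and 10.3% of the genome) and 39.7%, and region to flank ratios of 1.38 for MEF H3K9me3, 2.05 for secondary MEF H3K9me3 and 0.876 for H3K27me3, which reversed as the stricter cap removes its higher values. With the mean over all autosomal bins, the secondary median was 2.51-fold, the shares were 28.4% and 71.1%, and these ratios were 1.44, 2.24 and 1.26. With joining at 2-fold the secondary median was 2.20-fold, its share 62.2% and its flank ratio 2.41. With joining at 4-fold the secondary median was 2.48-fold and the shares were 24.6% and 67.9%. With 1 read per position the MEF share was 26.3% and the secondary flank ratio 2.32. With a highest bin of 15-fold, the flank ratios were 1.56, 2.44 and 1.38. With flanks 10 to 20 kb away they were 1.45, 2.29 and 1.26. The number of members otherwise ranged from 1619 to 2772. One more setting was chosen after seeing the data, in narrow regions with H3K27me3 whose highest H3K4me3 bin was 80-fold or more. There the ratio without chromosome 12 reversed from 0.958 to 1.54 without 5 regions high in all 4 libraries. About 11 to 16 reads per member limit H3K27me3 and H3K9me3 in single members. No paired analysis was possible because each group held 1 library.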
